A study of Mus musculus with 3 samples.

Results

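The genes described here are 77 regulators of the cell cycle and of DNA replication, out of 24411 genes tabulated. They were chosen by symbol alone and comprise the numbered Mcm, Cdk and E2f genes, cyclins of types A, B, D, E and F, the inhibitors of types Cdkn1 and Cdkn2, single-letter centromere proteins, the retinoblastoma family, Pcna, Mki67 and Top2a. Their RNA was sequenced in 3 libraries of 1 group, replicates 1 to 3, from microglia of the brains of C57BL/6J mice with both Mir137 alleles floxed and a Tmem119-CreERT2 allele (cKO), labelled as treated with a Pu.1 inhibitor. In Tmem119-CreERT2 mice, Tmem119, which marks microglia, drives a Cre recombinase that needs tamoxifen. Mice were 6 to 8 weeks old per the labels. The series design dates tamoxifen, given for 7 days, to an age of 7 to 8 weeks and names 4 mice, without saying how mice and libraries correspond. The inhibitor's name, dose and route are not known from the labels. Mir137+/+;Tmem119-CreERT2 (cWT) microglia and cKO microglia without inhibitor were not analysed here, so levels and the spread between libraries are reported and no effect of deletion or inhibitor was estimated. As nothing states that replicates came from separate animals, the spread may be technical.

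Cells enter the cycle when D-type cyclins and the kinases Cdk4 and Cdk6 phosphorylate the retinoblastoma proteins, which releases E2F transcription factors. E2F factors then raise genes of DNA replication, such as the Mcm2 to Mcm7 helicase, and cyclins E, A and B with Cdk2 and Cdk1 carry the cell through replication and mitosis. Inhibitors of the Cip/Kip and INK4 types hold the kinases back. Adult microglia are long-lived cells of which few divide at any time, and Pu.1 (encoded by Spi1) is a transcription factor on which macrophage identity depends.

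Several of these genes have seed matches for the microRNA miR-137 in their transcripts, and these sequences are shown because its gene was the one floxed. The row of Mir137 was at 0 in all 3 libraries, which checks nothing without a control group. The mature miR-137-3p (RefSeq, GRCm38, chr3:118433901-118433923, plus strand) is printed with its seed, bases 2 to 8, in capitals.

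mmu-miR-137-3p: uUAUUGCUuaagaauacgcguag

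The seed complement AGCAATA was searched on the transcript strand in the longest annotated 3′ UTR of each gene (GENCODE M21, GRCm38). It was found in 6 of the 77 genes (7.79%), compared with 1948 of 19518 genes of the table that have an annotated 3′ UTR (9.98%). The median 3′ UTR length was 1028 bases for the 77 genes and 998 bases for all genes. The 6 genes were Cdk6, E2f6, E2f7, Pcna, Rb1 and Rbl2. Each match is shown in capitals within 30 bases of its transcript. Capitals cover 8 bases where an A follows the 7-base match.

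Cdk6, first match (chr5:3526602-3526631, plus strand): agtgatgtttaAGCAATAAagaaggccttt
Cdk6, second match (chr5:3528189-3528218, plus strand): atatattagccAGCAATAttcctgtggtcg
Cdk6, last match (chr5:3529094-3529123, plus strand): cagtccatcctAGCAATAAaacctaggaat
E2f6 (chr12:16825499-16825528, plus strand): gtttgattttcAGCAATAAgtctcctcgga
E2f7 (chr10:110785798-110785827, plus strand): gagagacatagAGCAATAgacaattctttt
Pcna (chr2:132249178-132249207, minus strand): atcgtggagatAGCAATAAaaaaatgtttc
Rb1 (chr14:73195785-73195814, minus strand): tcaataacaaaAGCAATAgacagcttcccc
Rbl2 (chr8:91122646-91122675, plus strand): aggccaacctgAGCAATAcagcatgtctga

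These 6 genes span nearly the whole range of levels measured. Pcna was the most abundant of all 77 genes, whereas E2f7 was at 0.23 ± 0.17 FPKM (mean ± SD, n = 3, as for all values in this form). FPKM are counts per kilobase of effective transcript length, scaled to library size, so they compare genes per length. A match is a description of the sequence, and whether the microRNA acts on it was not measured.

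The promoters were searched for letters known from cell cycle promoters, which the choice by symbol did not use. RefSeq promoter windows (GRCm38, 250 bases before to 50 after the start) were matched for 65 of the 77 genes, with 75 windows in all. The E2F letters TTTGGCGC, TTTCCCGC, TTTCGCGC or TTTGCCGC, on either strand, were in 15 of 75 windows (20%), against 2.26% of all 32851 windows. CCAAT, the letters of the box bound by the factor NF-Y, was on either strand in 61.3% against 37.4%. TTTGAA, the cell cycle homology region bound by repressor complexes with E2f4 and Rbl2, was in 22.7% against 17.9%. GAGGAAGT, letters of a Pu.1 site, was in 1 window (1.33%), that of Cenpa, against 3.20% of all windows. The windows of the 77 genes also had more G and C, with a median of 61.0% against 52.7%. They held more CG pairs as well, with a median of 23 against 7, and each of the E2F letters searched contains CG. The part of these differences in the motif shares was not tested. Matches to different E2F letters can overlap, and each window was counted once.

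The E2F letters were in the windows of Mcm3, Mcm5, Mcm6 and Mcm7, 4 subunits of 1 helicase, and in those of Rbl1, Cdk2, Cdk1 and E2f3 among others. In Mcm3 the matches lay after the start site and are not printed. Stretches of 40 bases are printed in the direction of the gene, with the E2F letters of 1 match in capitals, some of them as the reverse complement.

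Mcm5 (chr8:75109344-75109383, plus strand): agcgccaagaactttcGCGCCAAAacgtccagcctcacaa
Mcm6 (chr1:128359729-128359768, minus strand): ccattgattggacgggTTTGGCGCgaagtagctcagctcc
Mcm7 (chr5:138172025-138172064, minus strand): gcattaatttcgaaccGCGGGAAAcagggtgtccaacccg
Rbl1 (chr2:157204529-157204568, minus strand): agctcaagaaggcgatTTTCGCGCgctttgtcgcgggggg
Cdk2 (chr10:128705168-128705207, minus strand): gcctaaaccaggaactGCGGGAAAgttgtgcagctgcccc
E2f3 (chr13:29986051-29986090, minus strand): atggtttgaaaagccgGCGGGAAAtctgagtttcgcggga

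E2F, CCAAT and TTTGAA letters were together in single windows of Cdk1, Cenpl and E2f3. That of Cdk1, the kinase of mitosis, is printed whole with these letters in capitals (CCAAT appears as ATTGG).

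Cdk1 (chr10:69352863-69353162, minus strand): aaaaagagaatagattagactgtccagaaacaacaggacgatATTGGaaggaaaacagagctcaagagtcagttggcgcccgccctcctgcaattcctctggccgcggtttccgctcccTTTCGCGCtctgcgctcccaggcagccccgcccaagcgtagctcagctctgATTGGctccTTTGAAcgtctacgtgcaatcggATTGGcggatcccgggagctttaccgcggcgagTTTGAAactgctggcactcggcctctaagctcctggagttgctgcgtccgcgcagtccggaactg

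The libraries held 17180404, 15710750 and 16356125 estimated counts in replicates 1, 2 and 3. Spi1 was at 187, 191 and 182 FPKM. All 12 homeostatic microglial markers were detected, among them Csf1r at 2370 ± 54.3 and Sall1 at 134 ± 5.88 FPKM. RNA of other cell types was also present. All 10 neutrophil markers were detected, as were all 5 of neutrophil precursors, a population of bone marrow that divides. Of the precursor genes, Elane was at 18.0 ± 1.83 and Mpo at 11.7 ± 1.47 FPKM. The 10 neutrophil markers, among them Ngp at 592 ± 5.75 FPKM, were not divided by stage of maturation. The neutrophil gene S100a8 was at 8800 ± 567 and the choroid plexus gene Ttr at 5690 ± 404 FPKM, both above Csf1r. Summed, the 10 neutrophil markers were at 14700 ± 855 FPKM and the microglial markers at 15339 ± 355 FPKM. In share of counts they took 0.348 and 3.33%. The summed level of the precursor genes was 54.9, 56.4 and 49.3 FPKM in replicates 1, 2 and 3. All 7 endothelial and all 5 monocyte markers were detected, as were 3 of 5 oligodendrocyte precursor, 2 of 6 lymphocyte, 1 of 5 erythroid and all 4 choroid plexus and ependymal markers. None of these markers was at 0 in all 3 libraries. In bulk RNA, fewer cells expressing a gene and less RNA per cell cannot be told apart, and which cells the cell cycle RNA came from was not tested.

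Of the 77 genes, 54 (70.1%) were detected, meaning an FPKM of at least 1 in each library, compared with 47.8% of all genes of the table. The level of a list is given as the median over its genes of log2(FPKM + 1). For the 77 genes it was 2.45 ± 0.06, compared with 0.95 ± 0.02 over all genes, of which 7430 were at 0 in every library. Together the 77 genes took 0.222% of counts (0.222, 0.219 and 0.225% in replicates 1, 2 and 3). Only Pcna and Cdkn1a had a mean of at least 50 FPKM, 25 genes had at least 10, and Ccna1 and Ccnb3 had no count. Having 0 counts allows Ccna1 and Ccnb3 a level of up to 3 counts per library, or 0.175, 0.191 and 0.183 CPM (counts scaled to library size without length), for counting error only.

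**Figure D1:**
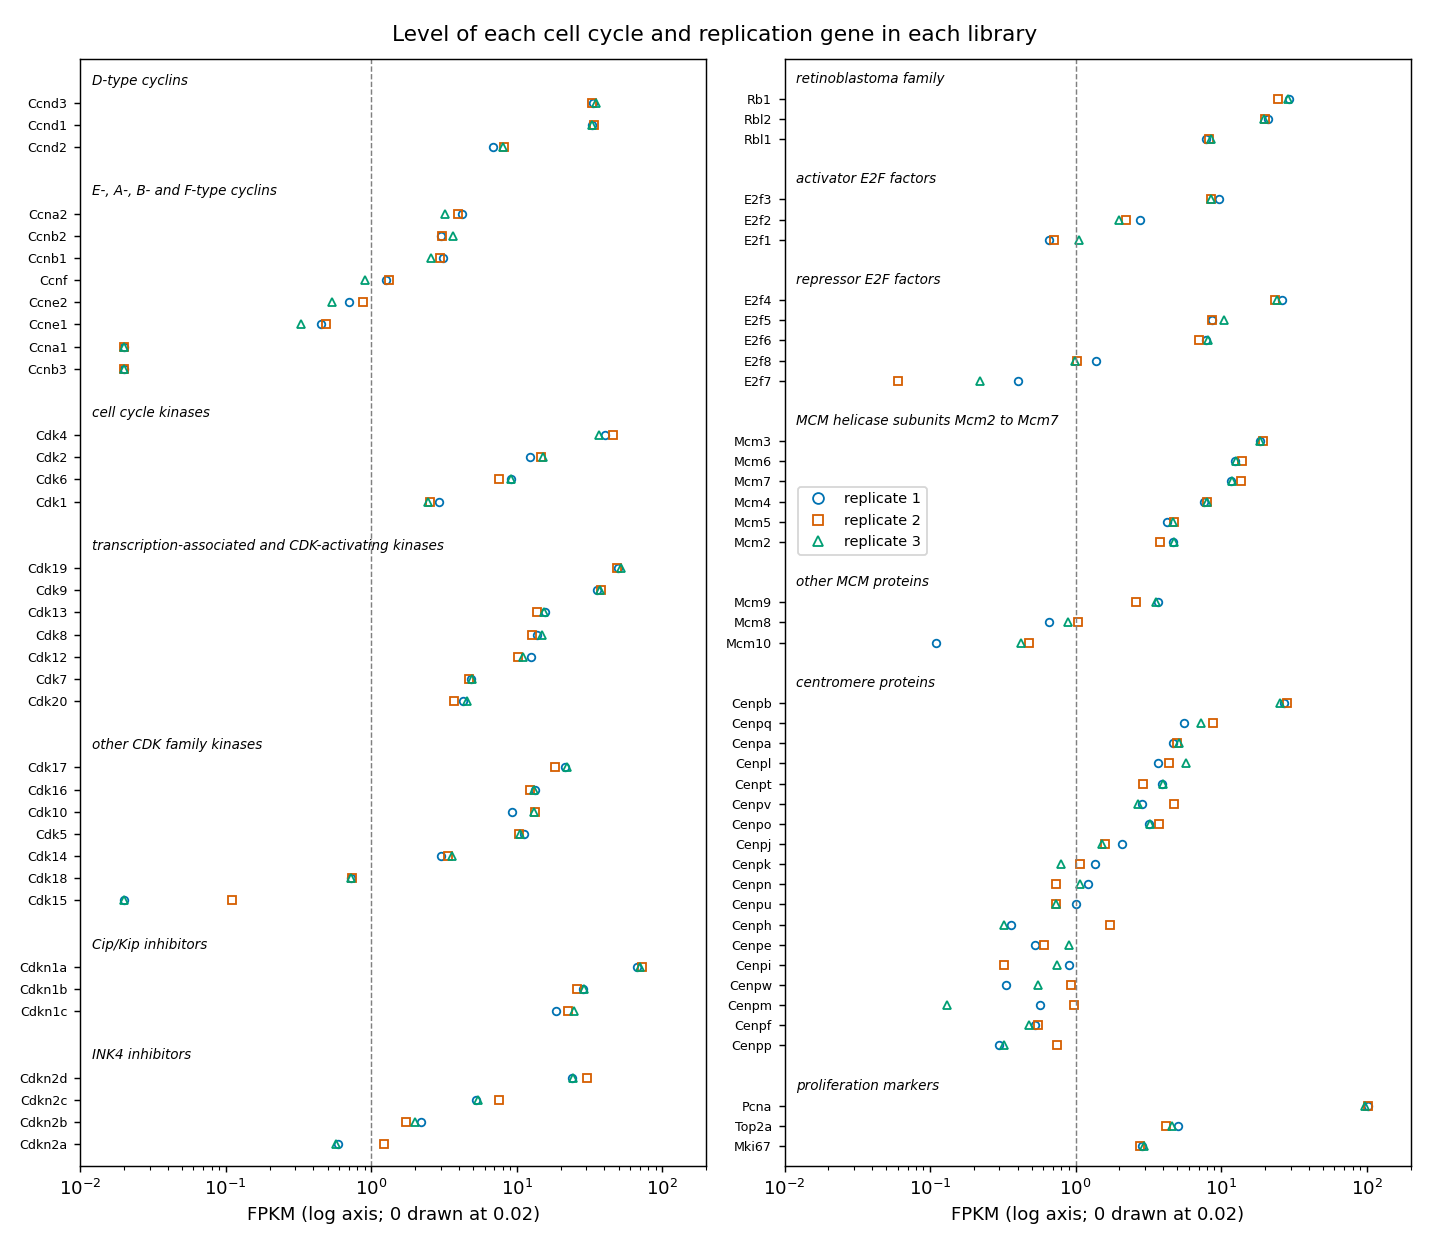
FPKM of each of the 77 genes (log axis, values of 0 drawn at 0.02) in replicates 1 to 3, grouped by role. The dashed line marks 1 FPKM. D-type cyclins, Cip/Kip inhibitors and retinoblastoma genes lie between 6.86 and 72.1 FPKM, and cyclins of types E, A, B and F lie at or below 4.21.

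D-type cyclins, which start the cycle in response to growth factors, included Ccnd3 and Ccnd1, the highest cyclins among the 77 genes. Ccnd3 (chr17:47505051-47599691, plus strand) was at 33.5, 32.8 and 35.0 FPKM in replicates 1, 2 and 3. Ccnd1 (chr7:144929931-144939925, minus strand) was at 33.1, 33.7 and 32.8 FPKM. The libraries of these cyclins overlapped, and the ratio of Ccnd3 to Ccnd1 within a library was 1.02 ± 0.05. Ccnd2 was lower, at 6.86, 8.16 and 8.04 FPKM, without overlap with either, and Ccnd3 exceeded it 4.42 ± 0.44 times, or 1.37 times in CPM. All 3 counts of Ccnd3 were fractional. Exons of Ccnd3 overlap Bysl and those of Ccnd1 overlap LTO1, both on the opposite strand, so reads of these partners cannot be told apart from theirs unless strand was used. Without per-length scaling, the ratio of Ccnd3 to Ccnd1 was 0.49 in CPM, with effective lengths of 1706 nt for Ccnd3 and 3515 nt for Ccnd1.

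Cyclins of later phases were low or undetected. Ccna2, the cyclin of replication and of entry into mitosis, was at 4.21, 3.92 and 3.23 FPKM, and its exons overlap Exosc9 on the opposite strand. The testis relative of Ccna2, Ccna1, had no count in any library. Ccnb1, the main mitotic cyclin, was at 3.09, 2.97 and 2.58 FPKM, and Ccnb2 at 3.23 ± 0.36 FPKM. Ccnb2 overlapped with both others, and all 3 stayed below every library of Ccnd2. Ccne1 and Ccne2, which activate Cdk2 at the start of replication, were at 0.42 ± 0.08 and 0.71 ± 0.17 FPKM, below 1 in every library. Ccne1 rested on 13, 13 and 9 counts, and Ccnd3 exceeded it 82.4 ± 20.7 times, or 24.5 times with a pseudocount of 1. The level of the 8 cyclins of types E, A, B and F was 0.94 ± 0.15, near that of all genes, and that of the 3 D-type cyclins was 5.08 ± 0.01.

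Of the 4 kinases that drive the cycle, Cdk4 was the highest, followed by Cdk2, Cdk6 and Cdk1. Cdk4 (chr10:127063534-127067920, plus strand), a partner of D-type cyclins, was at 40.4, 46.0 and 36.9 FPKM, and its exons overlap Tspan31 on the opposite strand. Cdk6 (chr5:3341485-3531008, plus strand), the alternative partner, was at 9.17, 7.54 and 9.16 FPKM, and the libraries of the pair did not overlap. The ratio of Cdk4 to Cdk6 was 4.85 ± 1.11 per effective length and 2.36 in CPM. The size of this ratio depends on the transcript assumed for Cdk6. The effective length behind its deposited FPKM was 2189 nt, against 11525 nt for its longest annotated transcript. With counts per longest protein-coding transcript of each gene the ratio was 13.2. The miR-137-3p matches printed above lie in that long form, the first of them 5822 bases after the stop codon, beyond the effective length used.

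Cdk2, the partner of cyclins E and A, was at 12.3, 14.7 and 15.2 FPKM. Cdk1 was at 2.91, 2.54 and 2.46 FPKM, below Cdk2 in every library, with a ratio of Cdk2 to Cdk1 of 5.40 ± 1.02. The libraries of Cdk1 overlapped with those of its partner Ccnb1.

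The kinases named Cdk that are associated with transcription or activate other CDKs included Cdk19, the third highest of the 77 genes, and Cdk9. Cdk19, a kinase of the Mediator complex, was at 49.2, 48.5 and 52.1 FPKM, above its relative Cdk8 at 13.8 ± 1.15 FPKM. Cdk9, which releases paused RNA polymerase II, was at 36.7 ± 1.23 FPKM, overlapping with Cdk4. Cdk13 and Cdk12, which phosphorylate elongating polymerase, were at 14.9 ± 1.06 and 11.2 ± 1.18 FPKM. Cdk20 was the lowest of these 7 at 4.17 ± 0.41 FPKM. Cdk7, which activates other CDKs, was at 4.84 ± 0.10 FPKM with 612, 542 and 589 counts. The effective length behind that FPKM was 7313 nt, 3.68 times the 1988 nt of its longest annotated transcript, so its FPKM is low for its counts.

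Among the other kinases of the family, Cdk17, Cdk16 and Cdk10 were at 20.7 ± 2.03, 12.96 ± 0.53 and 11.9 ± 2.26 FPKM. Cdk5, a kinase of postmitotic neurons and other cells, was at 10.7 ± 0.49 FPKM. Cdk15 was the lowest, with 2 counts in replicate 2 and 0 in the others.

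Inhibitors of the Cip/Kip type, which bind cyclin and kinase together, were all detected, and Cdkn1a was above every cyclin and cell cycle kinase among the 77 genes in each library. Cdkn1a (p21, chr17:29090976-29100727, plus strand), a target of p53, was at 67.4, 72.1 and 70.4 FPKM, the second of the 77 genes. No library of it overlapped with any library of Pcna above it or Cdk19 below it. Cdkn1b (p27), an inhibitor associated with quiescence, was at 28.3, 26.1 and 29.0 FPKM, 0.40 ± 0.03 times Cdkn1a, or 0.24 times per longest transcript. Cdkn1c (p57), an imprinted gene, was at 18.5, 22.6 and 24.6 FPKM and was lowest in replicate 1. All 3 inhibitors were above Cdk2, Cdk6 and Cdk1 in each library.

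INK4 inhibitors, which bind Cdk4 and Cdk6 alone, spanned a wide range. Cdkn2d (p19) was at 24.1, 30.2 and 24.3 FPKM, highest in replicate 2, and its level overlapped with that of Cdkn1b. Cdkn2c (p18) was at 6.05 ± 1.26 and Cdkn2b (p15) at 1.97 ± 0.24 FPKM, a ratio of 3.16 ± 1.06, or 1.70 per longest transcript. Cdkn2a, whose locus encodes p16 and Arf and which is used as a marker of senescence, was at 0.59, 1.23 and 0.57 FPKM from 6, 11 and 6 counts. Cdkn2d exceeded Cdkn2a 36.0 ± 9.97 times, or 15.3 times with a pseudocount of 1 and 58.8 times in CPM, and the size of that ratio is limited by the few counts of Cdkn2a.

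The 3 retinoblastoma genes, which restrain E2F factors, were all detected. Rb1 (chr14:73183673-73325822, minus strand) was at 29.4, 24.6 and 29.0 FPKM, lowest in replicate 2. Rbl2 (p130), the member bound to E2f4 in resting cells, was at 20.3 ± 0.66 FPKM. Rbl1 (p107), a member associated with cycling cells, was at 7.90, 8.23 and 8.56 FPKM, below both in every library. Rb1 exceeded Rbl1 3.36 ± 0.36 times and Rbl2 exceeded it 2.47 ± 0.18 times. Exons of Rb1 and Rbl2 overlap genes on the opposite strand, and the strandedness of the libraries is not stated.

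E2f4, the repressor E2F of resting cells, was the highest E2F gene at 26.2, 23.6 and 24.4 FPKM. E2f5 and E2f6, also repressors, were at 9.27 ± 1.02 and 7.70 ± 0.55 FPKM. Of the activators, E2f3 was at 8.90 ± 0.66 and E2f2 at 2.32 ± 0.39 FPKM, and E2f1 at 0.66, 0.71 and 1.05 FPKM. E2f4 exceeded E2f1 32.0 ± 8.30 times, or 14.4 times with a pseudocount of 1, with every library of E2f4 above every library of E2f1. E2f8 was at 1.13 ± 0.21 FPKM and E2f7 at 0.40, 0.06 and 0.22 FPKM, from 36, 5 and 19 counts. These 2 repressors, unlike E2f4, are themselves made in replicating cells. The level of the 5 repressors was 3.12 ± 0.09 and that of the 3 activators 1.73 ± 0.17, higher for the repressors in 3 of 3 libraries. Without E2f5, whose exons overlap another gene, the level of the repressors was 2.10.

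**Figure D2:**
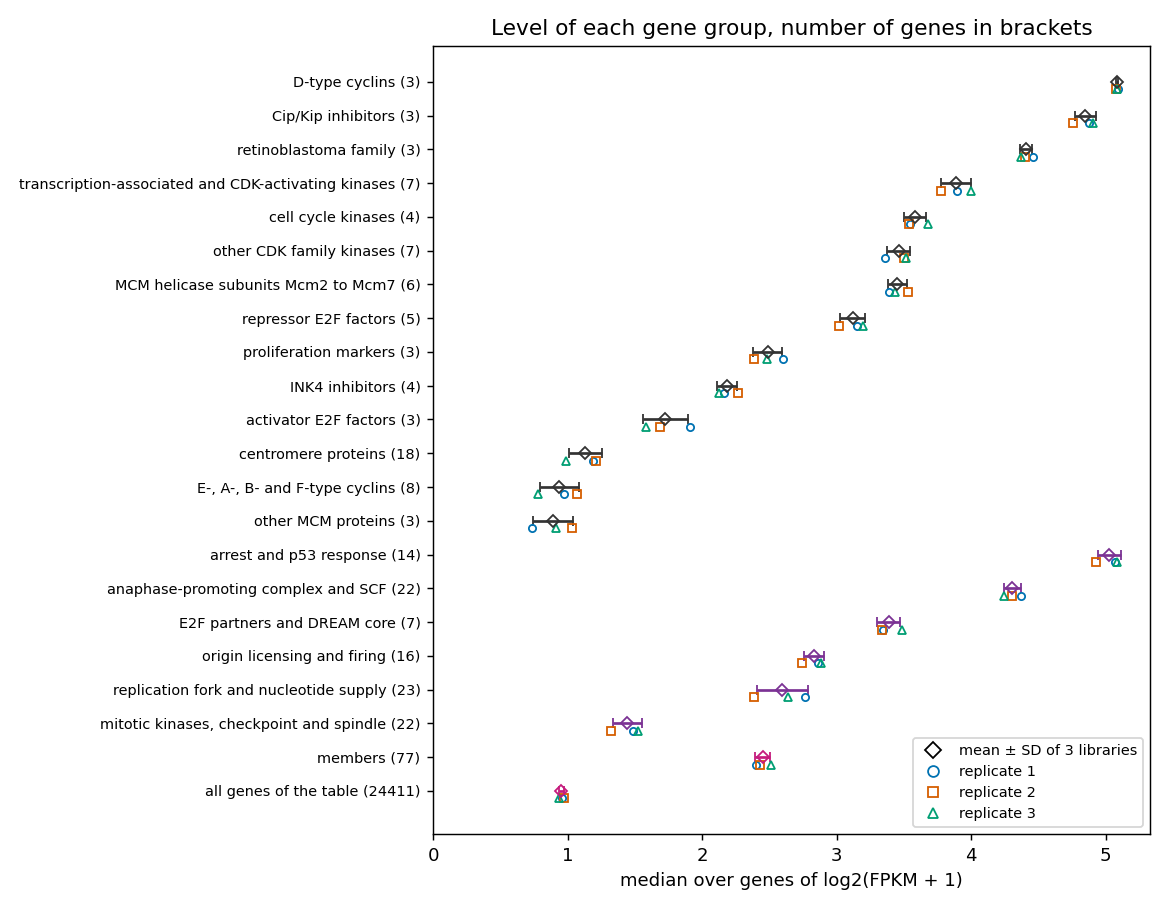
Median of log2(FPKM + 1) over the genes of each list, per library and as mean ± SD of 3 libraries, for the 14 roles of the 77 genes, 6 lists of other cell cycle genes, all 77 genes and all genes of the table. D-type cyclins at 5.08 and Cip/Kip inhibitors at 4.85 are at the top of the roles, and cyclins of types E, A, B and F at 0.94 lie near all genes at 0.95.

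Subunits of the replicative helicase were all detected, at unequal levels. Mcm3 was at 18.5, 19.4 and 18.4 FPKM, Mcm6 at 12.95 ± 0.84 and Mcm7 at 12.5 ± 1.14 FPKM. Mcm4 was at 7.90 ± 0.22, Mcm5 at 4.58 ± 0.27 and Mcm2 at 4.41 ± 0.52 FPKM. Although the protein complex holds 1 of each subunit, Mcm7 exceeded Mcm2 2.88 ± 0.64 times in RNA, or 1.97 times in CPM. Mcm7 exons overlap Ap4m1 and Cops6 on the opposite strand. Mcm9 and Mcm8, which act in repair, were at 3.30 ± 0.60 and 0.86 ± 0.19 FPKM. Mcm10, needed to start replication forks, was at 0.11, 0.48 and 0.42 FPKM from 6, 24 and 22 counts.

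Proliferation markers differed widely. Pcna (chr2:132249162-132253314, minus strand), the sliding clamp of DNA polymerases, which also serves in DNA repair, was at 102, 102 and 98.0 FPKM. Mki67 (Ki-67, chr7:135689784-135716361, minus strand), a protein used to mark cycling cells, was at 2.88, 2.79 and 2.95 FPKM from 485, 429 and 472 counts. Top2a, a topoisomerase of replicating and dividing cells, was at 5.06, 4.21 and 4.58 FPKM. Pcna exceeded Mki67 35.0 ± 1.68 times per effective length, 23.2 times per longest transcript and 3.50 times in CPM. The effective length was 9790 nt for Mki67 and 979 nt for Pcna.

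Of 18 genes with the symbol of a centromere protein 8 were detected, and most were low. Cenpb, which binds centromeric satellite repeats, was at 27.2, 28.2 and 25.4 FPKM, the only one above 10 FPKM in mean. Cenpq and Cenpa followed at 7.18 ± 1.59 and 4.93 ± 0.27 FPKM. Cenpa, the histone variant that marks centromeres, was below Cenpb by a ratio of 5.48 ± 0.49, which was 11.9 in CPM and 3.56 per longest transcript. Exons of Cenpb overlap Spef1 on the same strand, so strand would not tell reads of Spef1 apart from those of Cenpb. Cenpe and Cenpf, which are made in cells approaching mitosis, were at 0.68 ± 0.19 and 0.52 ± 0.04 FPKM. Their effective lengths were 7507 and 10818 nt. In CPM Cenpf was at 5.76, 5.93 and 5.25, near Cenpa at 5.12, 5.55 and 6.10. Cenpp was lowest at 0.45 ± 0.25 FPKM. Among all 77 genes Cenpj at 1.53 FPKM in its lowest library was just inside the detection limit. E2f8 at 0.99 and Ccnf at 0.91 FPKM in theirs were just outside.

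The ratios between 14 pairs of genes are plotted by library. Of 15 pairs chosen, the first gene was higher in 3 of 3 libraries in 13, including Ccna2 against Ccna1 with no count. The direction was opposite for Cdkn1b against Cdkn1a and mixed for Ccnd3 against Ccnd1. Which gene came first was set when the pairs were chosen, with earlier results of these data known. The count of 13 therefore reflects that choice, and Ccna1 without counts could not exceed Ccna2. A two-sided exact sign-flip permutation test over 3 libraries cannot go below p = 0.25, so no ratio was tested.

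**Figure D3:**
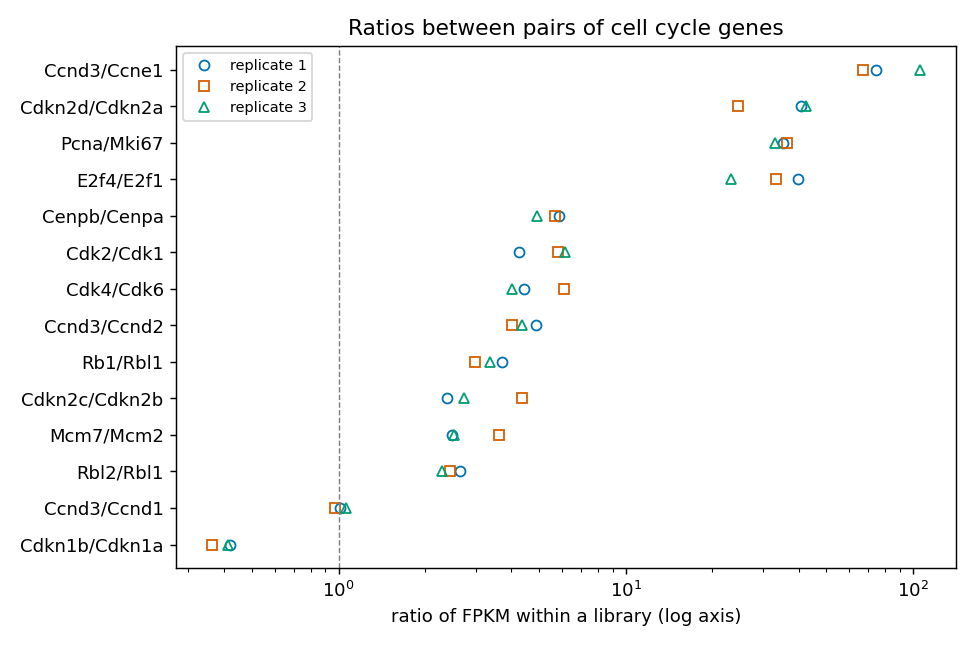
Ratio of the FPKM of 2 genes within a library (log axis) for 14 pairs, 1 point per library, with equality as a dashed line. Ratios range from 0.40 in mean for Cdkn1b to Cdkn1a to 82.4 for Ccnd3 to Ccne1, and Ccnd3 to Ccnd1 has points on either side of 1.

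Other genes of the pathway, from 6 lists that exclude the 77, were described in the same way. Of 104 measured, 91 were detected. All 14 genes of arrest and the p53 response but Cdkn3 were detected, at a level of 5.03 ± 0.09, led by the antiproliferative genes Btg2 at 473 ± 25.4 and Btg1 at 157 ± 6.38 FPKM, with the cyclin G gene Ccng2 at 81.6 ± 0.29 and Cdkn3 lowest at 1.49 ± 1.17 FPKM. All 22 genes of the anaphase-promoting complex and SCF ubiquitin ligases were detected at a level of 4.31 ± 0.06, with Skp1a at 105 ± 4.05, Anapc13 at 83.9 ± 16.5, Cul1 at 68.6 ± 3.26 and Fbxo5 lowest at 4.11 ± 0.72 FPKM. All 7 genes of E2F partners and of the DREAM repressor complex were detected at 3.39 ± 0.09, with Rbbp4 at 50.3 ± 3.02, the E2F partner Tfdp1 at 18.1 ± 1.97, Lin37 at 13.4 ± 0.20 and Lin9 at 4.90 ± 0.35 FPKM.

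Replication genes were lower and mitotic genes lowest. Of 16 genes of origin licensing and firing 14 were detected, at 2.83 ± 0.07, with Orc5 at 18.1 ± 1.81, Orc3 at 15.6 ± 0.37 and Gins4 at 15.2 ± 1.61 FPKM. Orc1, the origin subunit made in cycling cells, was at 0.16 ± 0.17 FPKM. Of 23 genes of the replication fork and nucleotide supply 21 were detected, at 2.60 ± 0.19, with Rfc2 at 34.6 ± 1.79, Rpa3 at 25.4 ± 2.88, Rpa1 at 19.5 ± 1.85 and Pole at 0.47 ± 0.08 FPKM. Of 22 mitotic kinases, checkpoint and spindle genes 14 were detected, at 1.44 ± 0.11. Bub3, a checkpoint protein, was at 48.8 ± 1.65, Ube2c at 6.96 ± 1.78, Mad2l1 at 4.62 ± 0.45 and the mitotic kinase Ttk at 0.39 ± 0.12 FPKM.

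The spread between libraries was compared with counting error by a chi-square test of homogeneity over all genes passing a filter on low counts. It compares libraries and not conditions. Of the 66 members that passed, 18 (27.3%) differed between libraries at an adjusted p below 0.05, compared with 41.4% of the 13246 genes tested. The members had fewer counts, with a median of 268.5 against 424 per library, and the part of this in the lower share was not tested. Without the filter it was 22 of 75 members (29.3%), against 37.8% of all genes. The median biological coefficient of variation by edgeR was 0.102 for the members tested and 0.0866 for all genes. The other 104 pathway genes gave 30 of 102 (29.4%).

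Most of these differences were small. The highest library exceeded the lowest by less than 1.5 times in 12 of the 18 genes, with a median of 1.29 times. Cdk19 differed by only 1.07 times, at 271, 268 and 287 CPM. Cenpi, a protein of the inner kinetochore, had the widest range at 3.03, 1.08 and 2.50 CPM, 2.79 times, from 52, 17 and 41 counts. Among all members tested, Cenpi, Cenpv, Cenpk, Cenpn and E2f1 had the highest biological coefficients of variation by edgeR, from 0.224 to 0.254. Of these, Cenpk, Cenpn and E2f1 did not pass the test and had means of only 17.3, 24.7 and 32.3 counts. This coefficient is not the observed spread: Cdk18, at 1.98, 2.04 and 2.01 CPM from a mean of 33.0 counts, had 0.212. E2f2 was at 12.3, 9.56 and 7.69 CPM and Cenpe at 3.96, 4.59 and 6.78 CPM, in opposite orders over the libraries. Mki67, Pcna, Top2a, the 6 helicase subunits and all tested cyclins but Ccnd2 did not pass the test. No library was highest throughout: 6 of the 18 genes were highest in each of replicates 1, 2 and 3.

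Replicate 2 differed with transcript length. The 7 genes lowest in replicate 2, among them Rb1, Cdk12, Cdk13 and Cenpi, had effective lengths of 3353 to 6760 nt. The 6 genes highest in it, among them Cdk4, Cdkn2d and Cenpq, had a median of 1113 nt, with Ccnd2 the exception at 5490 nt. Over the 12902 genes tested that have an effective length, Spearman's rho between length and the ratio of replicate 2 to the others was −0.295, and over 66 members it was −0.155, across genes that share libraries. With that trend removed, 13 of 66 members differed (19.7%), against 36.8% of all genes. All 13 were among the 18, and Cdk4, Cdk13, Cdk19, Cdkn2d and Cenpv did not pass. Without replicate 2, 8 of 67 members differed (11.9%), against 18.6% of all genes, and Rb1, Cdk4 and Cenpi were not among them.

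**Figure D4:**
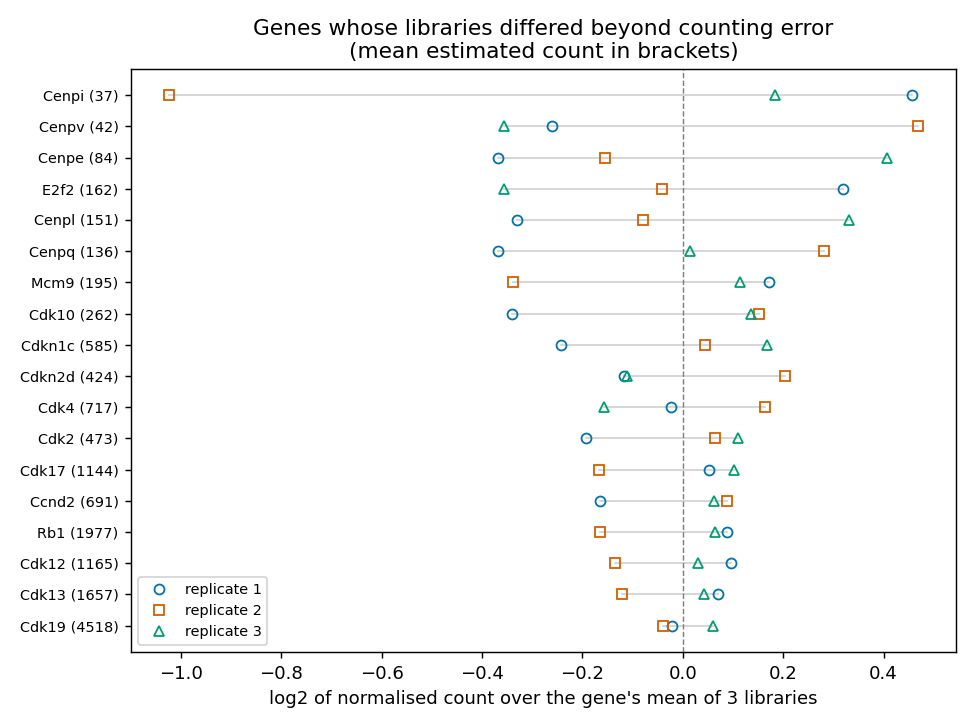
Normalised count of each of the 18 genes that differed between libraries, as log2 over the mean of the gene in 3 libraries, 1 point per library, with the mean estimated count in brackets. Genes are ordered by range from Cenpi, with replicate 2 below the others, to Cdk19, whose libraries lie within 1.07 times of each other.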

How the data were processed

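Total RNA of microglia was sequenced in 3 libraries. The authors deposited estimated counts per gene, not normalised between libraries, and FPKM per gene. The tools in the submitters' processing notes are RSEM, STAR 2.7.9a and DESeq2, and the builds GRCm38 and mm10. Nothing used here states settings, annotation or strandedness. Of all deposited count values 4.07% were not whole. Such values occurred in 7 of the 77 genes (Ccna2, Ccnd3, Ccne2, Cdk7, Cenpo, Cenpu and Rbl2), 6 of which overlap exons of another protein-coding gene, as do 16 of the 77. There were 0 columns of other samples.

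Genes, lists, roles and pairs were chosen with earlier results of these data known. Genes named were a set list of main regulators, the 3 highest and the lowest of each list, all pair members, the 5 of highest dispersion and those nearest the detection limit; others were named after their values were seen. Effective length was recovered from counts, FPKM and library totals. Lists were summarised as medians of log2(FPKM + 1), pseudocount 1. Counts were rounded, filtered and TMM-normalised with edgeR 4.0.16 (R 4.3.3). A chi-square test of homogeneity given effective library sizes was adjusted by Benjamini-Hochberg at 0.05 and tested on simulated data. DESeq2 1.42.0 size factors were an alternative. Removing the length trend, transcript-length ratios and leaving out overlapping genes were added after seeing the data. Coordinates are 1-based.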

Additional observations from a re-analysis of the deposited data

How the results depend on the processing

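No paired analysis was possible because the libraries form 1 group. The number of members detected was 54 to 57 with 1 library left out, 65 at 0.5 FPKM or 1 CPM, 34 at 5 FPKM and 41 without members that overlap another gene. The member level of 2.45 was 2.42 to 2.47 with 1 library left out, 2.19 and 2.16 with pseudocounts of 0.1 and 0.01, 3.76 in TMM-normalised CPM, 3.21 in TPM and 2.88 over members that pass the filter on low counts. Their share of counts was 0.220 to 0.224% with 1 library left out. Members whose libraries differed numbered 18 with DESeq2 size factors or total counts, against 41.4 and 41.6% of all genes, and 14, 8 and 12 without replicates 1, 2 and 3, against 28.2, 18.6 and 23.5%. Those 8, without replicate 2, were all among the 18; a test of 2 libraries has fewer samples. On the gene strand alone the promoter shares were 41.3% for CCAAT, 13.3% for TTTGAA and 13.3% for the E2F letters, against 21.1, 10.2 and 1.20% of all windows. With the chosen order of genes in each pair kept, the first gene was higher in every library in 13 to 14 pairs under each alternative. No pair with 1 direction in all libraries reversed. The size of 11 of 14 ratios moved beyond 1 SD in CPM, of 7 per longest transcript and of 6 with a pseudocount of 1. Leaving out overlapping members moved the level of D-type cyclins to 3.12, with Ccnd2 alone left, of the retinoblastoma family to 3.21, of repressor E2F factors to 2.10 and of cell cycle kinases to 3.26. Depth limits the genes with few counts, such as Cdkn2a, Ccne1, E2f7 and Mcm10.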
